A study of Mus musculus with 12 samples.

Results

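Of 39017 genes in the deposited count table, 53 genes of mitosis and DNA replication were followed across 12 mouse lung tumors. They were taken by gene symbol, and all 53 were found, as 33 mitotic genes, 18 genes of the G1/S transition and DNA synthesis (S-phase genes) and the transcription factors *Foxm1* and *Mybl2*. All 53 are protein-coding in GENCODE M21. RNA came from the CD45-negative cells of lung tumors of C57BL/6 mice, 3 tumors per group, collected 26 weeks after tumor initiation. All mice carried the alleles K-rasLSL-G12D/WT and p53Fl/Fl with the CCSP-rtTA transgene, and received 6000 units of a lentivirus that carries Cre, which starts the tumors, and, behind a tetracycline-responsive promoter, PPARαΔ13, a shortened PPARα that acts as a dominant negative. The groups labelled KP and KP_PPARaDN (here KP-PPARαΔ13) were labelled wt/wt, and those labelled KPG1 and KPG1_PPARaDN (KPG1-PPARαΔ13) carried Glut1Fl/Fl. PPARαΔ13 mice ate pellets with 625 mg/kg doxycycline for 15 days, and KP and KPG1 mice a regular diet, so that effects of the transgene and of doxycycline itself cannot be told apart. The CCSP promoter, known from airway club cells, drives rtTA, so the transgene can be switched on only in cells in which that promoter is active.

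The 12 tumors came from 9 mice, if a number in the labels stands for the animal. KP tumors 1 and 2, KPG1 tumors 1 and 2, and KPG1-PPARαΔ13 tumors 1 and 3 each shared a mouse, so p-values measure the spread between tumors more than between animals. The 3 KP tumors came from females and the 3 KPG1 tumors from males, and in that comparison sex and genotype cannot be told apart. Both sexes were present on doxycycline, where females gave 1 tumor of KP-PPARαΔ13 and 2 of KPG1-PPARαΔ13. Sex was therefore also uneven in the other comparisons of a pair of groups. The same holds for the genotypes averaged over both diets and for the interaction, whereas the diets averaged over both genotypes were even in sex. The total count per tumor was between 25263794 and 32654223. Levels are given as TMM-scaled CPM, read counts relative to library size, and the lowest count behind any of the 53 genes in any tumor was 69 reads, for *Ttk*. The genes that the design targets did not separate the groups in every tumor. *Ppara*, whose reads may include the transgene, was at 15.7, 10.5 and 9.54 CPM in the KP tumors, 2.71, 64.6 and 246 CPM in the KP-PPARαΔ13 tumors, 7.24, 10.5 and 15.3 CPM in the KPG1 tumors and 8.903, 19.2 and 17.7 CPM in the KPG1-PPARαΔ13 tumors. Only KP-PPARαΔ13 tumors 2 and 3 stood well above all tumors on the regular diet. *Slc2a1*, the gene of Glut1, was at 44.9 ± 11.5 CPM (SD, n = 3) in KP, 125 ± 23.9 in KP-PPARαΔ13, 44.7 ± 17.4 in KPG1 and 43.8 ± 17.4 in KPG1-PPARαΔ13. Group names below are therefore those of the labels.

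Cells that divide load the MCM helicase onto DNA in G1, fire it in S phase when cyclin E and E2F factors become active, and later build the spindle and kinetochores under the control of cyclins A and B with Cdk1. The S-phase genes are classical E2F targets, whereas mitotic genes are turned on later, by FOXM1 and B-MYB (*Mybl2*) together with the MuvB complex, which binds a short promoter element called the CHR, often beside CCAAT boxes. In tumors these genes together report how much of the tissue is cycling, and in a bulk sample fewer cycling cells and less RNA per cycling cell cannot be told apart.

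Promoters are shown first because the selection of the genes by name did not use their sequence. Windows from 250 bases before to 50 bases after each RefSeq gene start (GRCm38.p6) were available for 45 of the 53 genes, 4 of them with 2 windows. *Foxm1*, *Aurkb*, *Tpx2*, *Mcm4*, *Gins2*, *Kif20a*, *Ccne2* and *Ccna2* were not searched. A CHR, searched as TTTGAA or TTCGAA on both strands, was in the windows of 24 of 29 mitotic genes (82.8%) and 2 of 15 S-phase genes (13.3%), against 21.7% of the 27025 genes with a window. An E2F element, searched on both strands as GGCGGGAA, GGCGCGAA, GGCGCCAA or GCGCGAAA, was in 6 of 15 S-phase genes (40.0%) and 2 of 29 mitotic genes (6.90%), against 4.16% of all genes. CCAAT on either strand, whose letters overlap the end of GGCGCCAA, was in 79.3% of the mitotic genes, 53.3% of the S-phase genes and 41.1% of all genes. Both a CHR and CCAAT were in 21 mitotic genes (72.4%) and in 8.61% of all genes. These are matches of letters, not measured binding. The stretches below run 5′ to 3′ on the gene's strand and end at the base before the gene start, with the CHR of the mitotic genes and the E2F element of the S-phase genes in capitals. *Mki67* (chr7:135716380-135716505, minus strand) and *Top2a* (chr11:99024190-99024378, minus strand) are the first mitotic genes of the list with a CHR before the start. *Mcm5* (chr8:75109346-75109508, plus strand) is the S-phase counterpart, and *Mcm6* (chr1:128359706-128359825, minus strand) was added after its values were seen, since none was found before the start of *Mcm2*, *Pcna*, *Rrm2*, *Ccne1* or *E2f1*.
Mki67: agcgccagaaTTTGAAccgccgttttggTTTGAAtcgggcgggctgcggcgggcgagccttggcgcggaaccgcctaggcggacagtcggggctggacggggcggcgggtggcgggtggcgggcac
Top2a: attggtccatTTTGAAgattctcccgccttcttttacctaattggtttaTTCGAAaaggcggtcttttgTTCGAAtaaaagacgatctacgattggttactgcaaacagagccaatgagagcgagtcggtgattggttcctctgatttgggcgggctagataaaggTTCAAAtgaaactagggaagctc
Mcm5: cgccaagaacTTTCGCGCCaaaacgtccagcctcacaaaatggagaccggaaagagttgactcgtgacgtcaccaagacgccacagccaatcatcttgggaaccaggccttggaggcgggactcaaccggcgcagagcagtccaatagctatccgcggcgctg
Mcm6: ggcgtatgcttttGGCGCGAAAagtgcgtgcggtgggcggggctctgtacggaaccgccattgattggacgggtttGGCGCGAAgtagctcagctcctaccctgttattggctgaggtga
*Mki67* holds 2 CHR copies and *Top2a* 4. The capitals in *Mcm5* and the first capitals in *Mcm6* are each made of overlapping elements.

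All 53 genes were expressed in every tumor, and 44 had a median of at least 10 CPM. Per exon length, *Pcna*, the sliding clamp of DNA polymerases, had the highest median over the tumors (159 TPM, which scales counts by exon length and depth), followed by the helicase subunits *Mcm7* (85.4 TPM) and *Mcm6* (63.7 TPM). The kinetochore genes *Ndc80* (4.34 TPM) and *Nuf2* (4.97 TPM) and the checkpoint kinase *Ttk* (4.54 TPM) were lowest. Their summed level in a tumor was 1212, 2092 and 1867 in KP, 2197, 2349 and 1003 in KP-PPARαΔ13, 1960, 1472 and 1499 in KPG1 and 1817, 1954 and 1520 in KPG1-PPARαΔ13, in CPM. KP-PPARαΔ13 held both the lowest and the highest sum, and the groups overlapped.

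**Figure D1:**
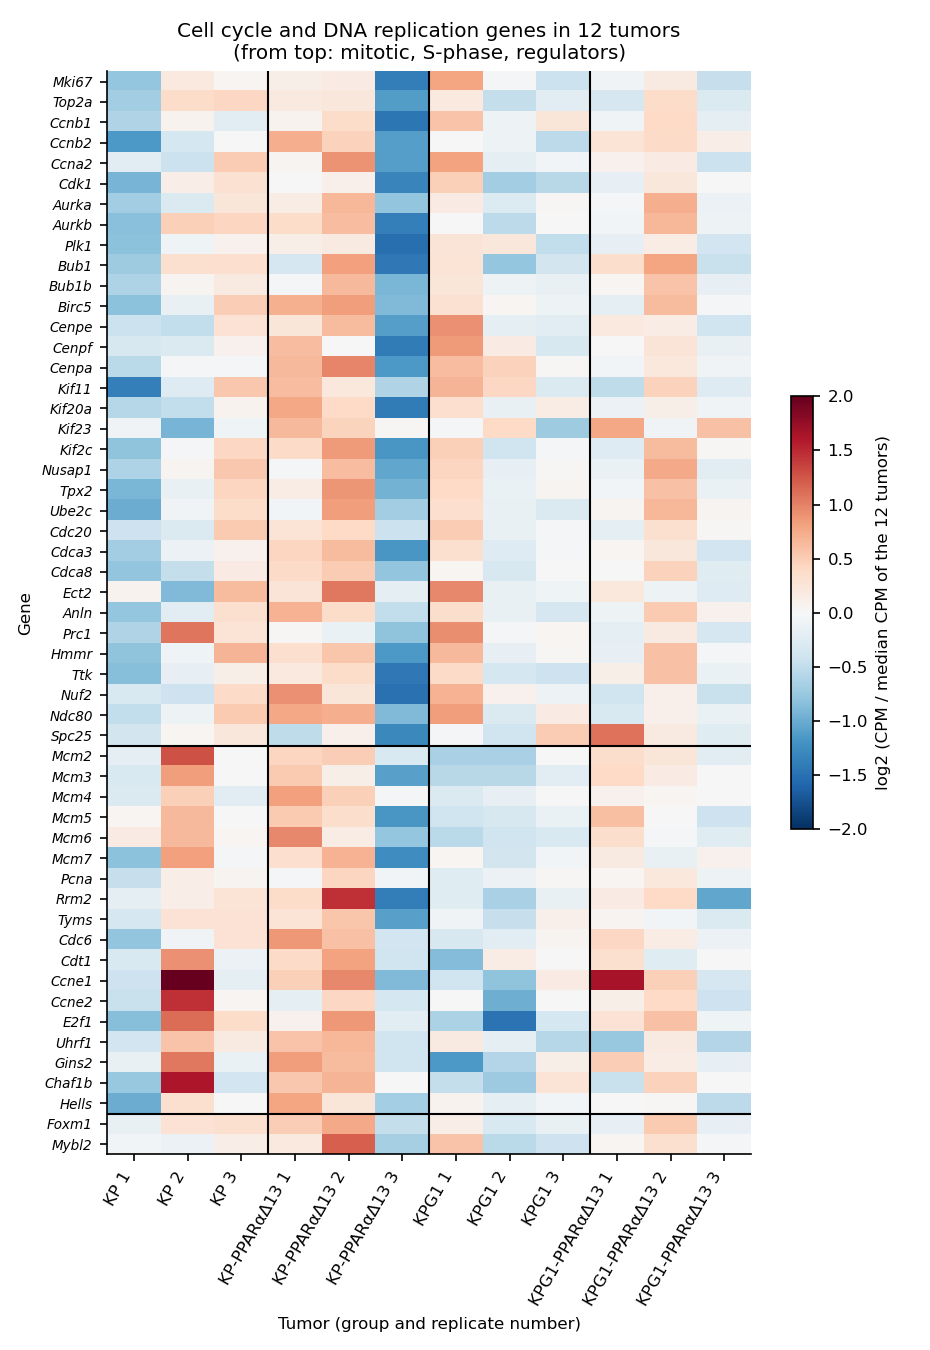
Level of each gene (rows) in each tumor (columns, by group and replicate number) as log2 of its CPM over the gene's median CPM of the 12 tumors, with lines between groups and between mitotic, S-phase and regulator genes. KP-PPARαΔ13 tumor 3 is lowest for 35 of the 53 genes and KP tumor 2 is highest for 10 of the 18 S-phase genes.

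Among the mitotic genes, *Mki67* (ENSMUSG00000031004; chromosome 7, 135689784 to 135716361, minus strand on mm10), which encodes the proliferation antigen Ki-67, was at 74.2, 145 and 129.7 CPM in the KP tumors, 138, 142 and 48.6 CPM in the KP-PPARαΔ13 tumors, 219, 124 and 94.2 CPM in the KPG1 tumors and 120.4, 143 and 91.8 CPM in the KPG1-PPARαΔ13 tumors. The lowest tumor was KP-PPARαΔ13 tumor 3 and the highest KPG1 tumor 1, 4.498-fold apart. *Top2a*, the topoisomerase that untangles replicated chromosomes, was at 48.4, 101 and 104 CPM in the KP tumors, 89.6, 91.3 and 36.2 CPM in the KP-PPARαΔ13 tumors, 89.2, 56.4 and 67.4 CPM in the KPG1 tumors and 62.3, 101 and 63.9 CPM in the KPG1-PPARαΔ13 tumors. Here too KP-PPARαΔ13 tumor 3 was lowest, and every pair of groups overlapped. *Ccnb1*, cyclin B1, which activates Cdk1 at the entry into mitosis, was at 11.2, 17.7 and 14.6 CPM in the KP tumors, 17.9, 21.8 and 6.197 CPM in the KP-PPARαΔ13 tumors, 25.2, 15.7 and 19.99 CPM in the KPG1 tumors and 16.2, 22.2 and 14.96 CPM in the KPG1-PPARαΔ13 tumors. *Cdk1*, its kinase, was at 20.03, 41.7 and 47.2 CPM in the KP tumors, 37.8, 40.8 and 15.3 CPM in the KP-PPARαΔ13 tumors, 53.2, 23.5 and 26.04 CPM in the KPG1 tumors and 33.9, 44.9 and 38.6 CPM in the KPG1-PPARαΔ13 tumors. *Ccna2*, cyclin A2, was at 24.96, 21.8 and 41.7 CPM in the KP tumors, 30.2, 54.2 and 13.6 CPM in the KP-PPARαΔ13 tumors, 50.9, 25.9 and 28.2 CPM in the KPG1 tumors and 30.8, 32.8 and 21.7 CPM in the KPG1-PPARαΔ13 tumors. In all of these genes the spread inside KP-PPARαΔ13, between tumors 2 and 3, was wider than the distance between any pair of group means. *Ccna2* shares 12.5% of its exon length with *Exosc9* on the opposite strand. The library kit marks strand, but whether counting used it is not given in the sources used here. Such overlap was largest for the helicase gene *Gins2*, 67.3% of whose exon length lies opposite *Gse1*, followed by *Kif20a* (29.3%, *Cdc23*), *Ube2c* (22.8%, *Tnnc2*) and *Ccne2* (17.4%, *Ints8*), and reads of these partners cannot be told apart if strand was not used.

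*Plk1*, a kinase of mitotic entry and spindle assembly, was at 6.74, 11.2 and 12.7 CPM in the KP tumors, 12.96, 13.6 and 4.22 CPM in the KP-PPARαΔ13 tumors, 14.2, 14.04 and 8.49 CPM in the KPG1 tumors and 10.6, 13.2 and 9.17 CPM in the KPG1-PPARαΔ13 tumors. *Aurkb* and *Birc5* encode Aurora B and survivin, partners in the chromosomal passenger complex that corrects faulty attachments to the spindle. *Aurkb* was at 5.38, 13.3 and 13.02 CPM in the KP tumors, 12.4, 14.7 and 3.75 CPM in the KP-PPARαΔ13 tumors, 9.68, 6.68 and 9.58 CPM in the KPG1 tumors and 9.31, 15.3 and 9.02 CPM in the KPG1-PPARαΔ13 tumors. *Birc5* was at 5.51, 8.82 and 13.8 CPM in the KP tumors, 15.9, 17.4 and 5.29 CPM in the KP-PPARαΔ13 tumors, 12.04, 9.98 and 9.12 CPM in the KPG1 tumors and 8.66, 15.2 and 9.54 CPM in the KPG1-PPARαΔ13 tumors. KP-PPARαΔ13 tumor 3 was lowest for these genes and KP tumor 1 next lowest, whereas KPG1 tumor 1, highest for *Mki67* and *Plk1*, was in the middle of the tumors for *Aurkb* and *Birc5*. The regulators followed. *Foxm1* was at 22.5, 30.5 and 31.04 CPM in the KP tumors, 35.2, 42.2 and 17.8 CPM in the KP-PPARαΔ13 tumors, 27.2, 20.1 and 22.5 CPM in the KPG1 tumors and 22.2, 35.6 and 22.2 CPM in the KPG1-PPARαΔ13 tumors. *Mybl2* was at 10.1, 9.67 and 11.6 CPM in the KP tumors, 12.03, 24.1 and 6.63 CPM in the KP-PPARαΔ13 tumors, 15.6, 7.19 and 7.83 CPM in the KPG1 tumors and 10.7, 13.03 and 10.2 CPM in the KPG1-PPARαΔ13 tumors. Both were highest in KP-PPARαΔ13 tumor 2 and lowest in KP-PPARαΔ13 tumor 3.

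Among the S-phase genes, *Mcm2* (ENSMUSG00000002870; chromosome 6, 88883474 to 88898780, minus strand) encodes a subunit of the replicative helicase and was at 46.8, 128 and 53.6 CPM in the KP tumors, 71.1, 74.8 and 42.8 CPM in the KP-PPARαΔ13 tumors, 33.7, 33.7 and 52.4 CPM in the KPG1 tumors and 67.7, 62.7 and 45.6 CPM in the KPG1-PPARαΔ13 tumors. *Mcm5*, another subunit, was at 40.8, 62.3 and 39.9 CPM in the KP tumors, 56.9, 50.7 and 17.6 CPM in the KP-PPARαΔ13 tumors, 30.2, 31.9 and 36.1 CPM in the KPG1 tumors and 60.1, 39.5 and 29.9 CPM in the KPG1-PPARαΔ13 tumors. Both were highest in KP tumor 2, whereas *Mki67* was highest in KPG1 tumor 1. *Pcna* was at 80.9, 122 and 116 CPM in the KP tumors, 109, 150.2 and 107 CPM in the KP-PPARαΔ13 tumors, 93.9, 102 and 113 CPM in the KPG1 tumors and 114, 128 and 104 CPM in the KPG1-PPARαΔ13 tumors. It was the steadiest of the 53 genes, with 1.86-fold between the highest and the lowest tumor, followed by the anaphase activator *Cdc20* (1.94-fold) and *Mcm4* (2.173-fold). *Rrm2* (ENSMUSG00000020649; chromosome 12, 24708241 to 24714146, plus strand), a subunit of ribonucleotide reductase, which supplies deoxynucleotides, was at 22.4, 28.3 and 31.1 CPM in the KP tumors, 33.04, 70.5 and 9.88 CPM in the KP-PPARαΔ13 tumors, 21.9, 16.5 and 23.2 CPM in the KPG1 tumors and 28.8, 34 and 12.6 CPM in the KPG1-PPARαΔ13 tumors. *Ccne1* (ENSMUSG00000002068; chromosome 7, 38097984 to 38107534, minus strand), cyclin E1, which drives entry into S phase, was at 5.101, 32.6 and 6.02 CPM in the KP tumors, 9.49, 13.3 and 3.72 CPM in the KP-PPARαΔ13 tumors, 5.2, 3.92 and 7.63 CPM in the KPG1 tumors and 21.3, 9.54 and 5.39 CPM in the KPG1-PPARαΔ13 tumors. *E2f1*, an activator of the S-phase genes and itself one of them, was at 4.31, 16.8 and 9.95 CPM in the KP tumors, 8.19, 14.1 and 6.67 CPM in the KP-PPARαΔ13 tumors, 5, 2.79 and 6.05 CPM in the KPG1 tumors and 9.48, 11.6 and 7.29 CPM in the KPG1-PPARαΔ13 tumors. The last 3 varied most of all 53 genes, 7.14-fold, 8.78-fold and 6.02-fold over the tumors. *Ccne1* was high in KP tumor 2 and KPG1-PPARαΔ13 tumor 1 and at most 13.3 CPM in the other tumors.

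**Figure D2:**
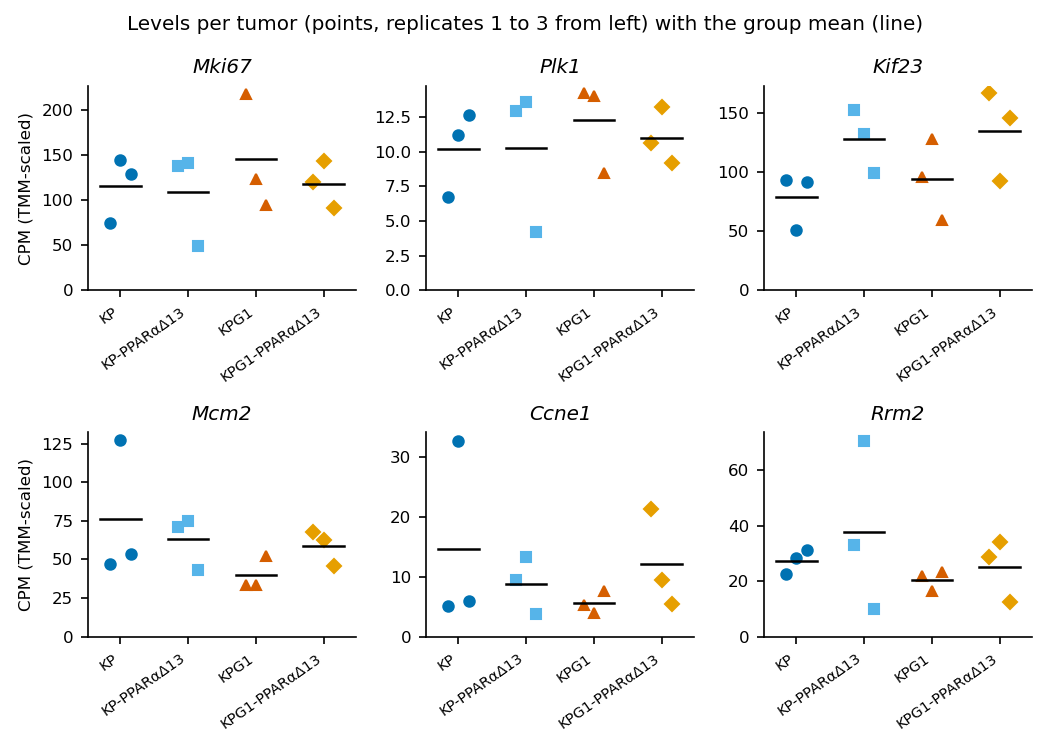
Level in CPM (vertical axes, from 0) of 3 mitotic and 3 S-phase genes in the 3 tumors of each group (points) with the group mean (line). Groups overlap for *Mki67*, *Plk1*, *Mcm2*, *Ccne1* and *Rrm2*, while all 3 KP-PPARαΔ13 tumors lie above the 3 KP tumors for *Kif23*.

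The tumors were then compared by the mean log2 CPM of each list, as a description. The mean of the mitotic genes was 3.79, 4.32 and 4.72 in KP, 4.74, 4.94 and 3.42 in KP-PPARαΔ13, 4.89, 4.29 and 4.304 in KPG1 and 4.43, 4.81 and 4.29 in KPG1-PPARαΔ13. The mean of the S-phase genes was 4.28, 5.49 and 4.72 in KP, 5.16, 5.28 and 4.09 in KP-PPARαΔ13, 4.33, 4.21 and 4.63 in KPG1 and 4.93, 4.85 and 4.45 in KPG1-PPARαΔ13. Group means with SD over 3 tumors were 4.28 ± 0.47, 4.37 ± 0.83, 4.49 ± 0.34 and 4.51 ± 0.27 for the mitotic genes in KP, KP-PPARαΔ13, KPG1 and KPG1-PPARαΔ13, and 4.83 ± 0.62, 4.84 ± 0.65, 4.39 ± 0.22 and 4.74 ± 0.26 for the S-phase genes. The widest gap between group means was that of the S-phase genes in KP-PPARαΔ13 and KPG1, and the tumors of these groups overlapped. 2 tumors stood apart. KP-PPARαΔ13 tumor 3 was lowest for 35 genes (26 of the 33 mitotic ones), with a median ratio to each gene's median tumor of 0.53, and was below KP-PPARαΔ13 tumors 1 and 2 for all 53. KP tumor 2 was highest for 10 S-phase genes but for 1 mitotic gene, and its S-phase mean exceeded its mitotic mean by 1.17, more than in any other tumor. At the other end, KPG1 tumor 1 was highest for 8 mitotic genes and no S-phase gene, with a difference of -0.56.

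**Figure D3:**
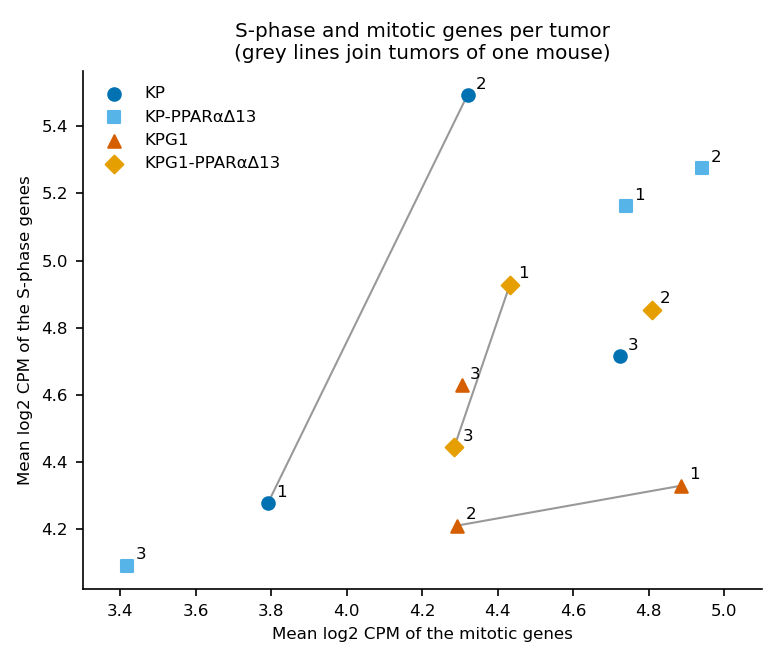
Mean log2 CPM of the S-phase genes (vertical axis) against that of the mitotic genes (horizontal axis) in the 12 tumors, marked by group and replicate number, with grey lines between tumors of the same mouse. KP tumor 2 lies highest at 5.49 on the S-phase axis and KP-PPARαΔ13 tumor 3 lowest on both, at 3.42 and 4.09.

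Tumors of 1 mouse could differ as much as tumors of different mice. Between KP tumors 1 and 2, which shared a mouse, all 18 S-phase genes and 28 of 33 mitotic genes were higher in tumor 2, and 16 of the 53 genes differed more than 2-fold, by up to 6.33-fold for *Ccne1*. Of all 16527 genes tested, 28.2% differed more than 2-fold between these tumors. KPG1 tumors 1 and 2 also shared a mouse, and 32 of 33 mitotic genes were higher in tumor 1, by a median of 0.58 on the log2 scale. Between KPG1-PPARαΔ13 tumors 1 and 3 the median difference of the 53 genes was 0.14, higher in tumor 1 for 41 of them. Within groups, the median SD of log2 CPM was 0.61 for the mitotic genes and 0.54 for the S-phase genes, against 0.43 for all genes tested.

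The levels of cell type markers also varied between the tumors. The summed level of 10 leukocyte markers was 759, 971 and 2923 in KP, 394, 1114 and 4306 in KP-PPARαΔ13, 1913, 2098 and 474 in KPG1 and 206, 2006 and 903 in KPG1-PPARαΔ13, in CPM. *Lyz2*, which alveolar type 2 cells also make in the mouse, was the most abundant of them, from 160.3 to 4218 CPM, so that the sum mostly follows *Lyz2*. The defining marker *Ptprc*, which encodes CD45, had a median of 5.34 CPM and was highest in KP tumor 1 (31.5 CPM), and *Cd3e* was at 0 in KP-PPARαΔ13 tumor 3 and at most 0.24 CPM elsewhere. KP-PPARαΔ13 tumor 3, lowest in mitotic genes, was highest in the sum of 6 endothelial markers (718.5 CPM, against 132 to 446 in the other tumors) and of 6 alveolar type 1 markers (2825 CPM). KP tumor 2, highest in S-phase genes, was lowest in alveolar type 1 markers (198 CPM) and in 6 epithelial markers (2607 CPM). KPG1 tumor 1, highest for *Mki67*, was nevertheless high in endothelial (446 CPM) and alveolar type 1 markers (2386 CPM), below only KP-PPARαΔ13 tumor 3. All 8 alveolar type 2 markers were detected in every tumor, with *Sftpc*, the surfactant protein C gene, from 5540 to 29950 CPM. The 6 fibroblast markers had higher values in KP-PPARαΔ13 than in KP for 6 of 6 genes (median log2 fold change 1.17) and in KPG1-PPARαΔ13 than in KPG1 for 1 of 6 (-0.16), and the 8 alveolar type 2 markers had lower values with doxycycline for 8 of 8 (-0.71, over both genotypes), with no gene of either list called. Of the 5 erythroid markers, *Hba-a2*, a hemoglobin gene, was at 26.2, 13.1 and 17.6 CPM in the KP tumors, 53.7, 75.1 and 34.4 CPM in the KP-PPARαΔ13 tumors, 0.24, 0.103 and 0.529 CPM in the KPG1 tumors and 122, 29.1 and 37.1 CPM in the KPG1-PPARαΔ13 tumors. It was called lower in KPG1 than in KP (adjusted p = 0.0248, edgeR) and higher in KPG1-PPARαΔ13 than in KPG1 (adjusted p = 0.0105, edgeR), and a near-identical hemoglobin copy may share its reads. The other 4 erythroid markers had higher values in KPG1 than in KP, and the median of the 5 was 0.38. In KP-PPARαΔ13 against KP, 4 of the 5 were higher with an unadjusted p under 0.05 by edgeR (median 1.475), none of them called. Over both genotypes 4 of the 5 had higher values with doxycycline (median 1.06), and 1 was called (adjusted p = 0.00429, edgeR). The part of other cells in the levels of the cell cycle genes was not tested.

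Mitotic and S-phase genes followed partly separate patterns over the 12 tumors. These correlations share the 12 libraries and the tumors of 1 mouse and are given as a description. Pearson's r with *Mki67* on log2 CPM had a median of 0.79 over the other 32 mitotic genes, 0.40 over the S-phase genes and -0.02 over all genes tested. *Plk1* (0.94), *Cenpf* (0.89), *Ccnb1* (0.89) and *Ttk* (0.89) were the closest. Taken within groups, the medians of r with *Mki67* were 0.86 for the mitotic genes, 0.59 for the S-phase genes and -0.02 for all genes. Over the 12 tumors, all 33 mitotic genes were nearer to the mean of the other mitotic genes than to the S-phase mean. Of the S-phase genes, 16 of 18 were nearer to the mean of the other S-phase genes, the exceptions being *Rrm2* and *Hells*. Some of these were near ties. The r with the mitotic and with the S-phase mean was 0.74 and 0.73 for *Rrm2* and 0.75 and 0.74 for *Hells*. It was 0.59 and 0.60 for *Uhrf1* and 0.80 and 0.81 for *Tyms*. *Foxm1* and *Mybl2* were both nearer to the mitotic mean (r = 0.80 and 0.77) than to the S-phase mean (0.77 and 0.50). The lists follow textbook roles, so this grouping describes how well those roles hold in these tumors. *Kif23* (ENSMUSG00000032254; chromosome 9, 61915905 to 61946774, minus strand), a kinesin of the central spindle needed for cytokinesis, was the exception among mitotic genes, with r = 0.01 with *Mki67* and 0.14 with the mitotic mean, although its median of 42.1 TPM was close to that of *Mki67* (43.0 TPM). Its levels were 92.8, 51.3 and 91.8 CPM in the KP tumors, 152, 132 and 98.95 CPM in the KP-PPARαΔ13 tumors, 95.4, 128 and 59.7 CPM in the KPG1 tumors and 167, 92.4 and 146 CPM in the KPG1-PPARαΔ13 tumors. The tumor lowest for most mitotic genes, KP-PPARαΔ13 tumor 3, was near the middle for *Kif23*. *Ect2*, which activates RhoA at the cleavage furrow, was next, with r = 0.41.

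**Figure D4:**
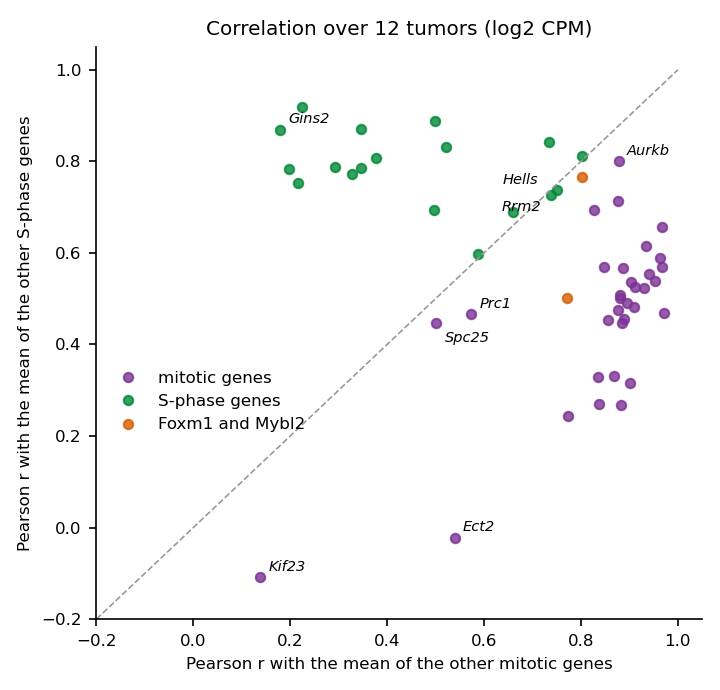
Pearson's r over 12 tumors of each gene with the mean of the other S-phase genes (vertical axis) and of the other mitotic genes (horizontal axis), with the line of equal r. All 33 mitotic genes lie below the line, 16 of 18 S-phase genes above it, and *Kif23* lies apart at 0.14 and -0.11.

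Genes outside the 53 with related roles were read from lists written by hand. Of 37 other mitotic genes tested, the median r with *Mki67* was 0.73, and of 35 other replication genes 0.49. The 12 genes of recombination and fork repair, such as *Chek1*, stood at 0.62. The 15 inhibitors of the cell cycle stood at -0.14. Of the cell type markers, the endothelial list stood at -0.50, the 9 leukocyte markers tested at -0.49, the epithelial list at -0.35, the alveolar type 2 list at -0.32, the alveolar type 1 list at -0.22, the airway list at -0.10, the fibroblast list at -0.04 and the erythroid list at 0.12. Taken within groups, these medians were -0.56, -0.50, -0.29, -0.62, -0.26, -0.24, 0.22 and 0.34 in that order. *Cdkn1a*, which encodes the p53 target p21, was at 161, 39.4 and 73.9 CPM in the KP tumors, 106, 92.5 and 109 CPM in the KP-PPARαΔ13 tumors, 86.2, 118 and 70.1 CPM in the KPG1 tumors and 89.8, 64.96 and 90.3 CPM in the KPG1-PPARαΔ13 tumors. *Cdkn2a*, of the p16 and p19Arf locus, was at 43.2, 61.4 and 50.8 CPM in the KP tumors, 108, 77.2 and 38.8 CPM in the KP-PPARαΔ13 tumors, 11.04, 63.6 and 81 CPM in the KPG1 tumors and 70.8, 68.1 and 62.1 CPM in the KPG1-PPARαΔ13 tumors. *Ccnd1*, cyclin D1 of the G1 phase, was at 392, 259.5 and 447 CPM in the KP tumors, 529, 370.4 and 583 CPM in the KP-PPARαΔ13 tumors, 465, 623 and 266 CPM in the KPG1 tumors and 126, 276 and 311 CPM in the KPG1-PPARαΔ13 tumors. *Ccnd1* ran lower in KPG1-PPARαΔ13 than in KP-PPARαΔ13 without overlap, as did 7.25% of all genes tested, and it was not called. *Myc* was at 42.3, 23.1 and 73.6 CPM in the KP tumors, 83.4, 54 and 60.5 CPM in the KP-PPARαΔ13 tumors, 43.2, 49.7 and 28.8 CPM in the KPG1 tumors and 83.03, 26.1 and 64.9 CPM in the KPG1-PPARαΔ13 tumors. *Cdkn2a* was lowest in KPG1 tumor 1, the tumor with the highest *Mki67*. Its next lowest level, 38.8 CPM, was in the KP-PPARαΔ13 tumor that had the lowest *Mki67* of all tumors.

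The first comparison asked how cell cycle genes differ with PPARαΔ13 and doxycycline in the tumors labelled wt/wt. None of the 53 genes passed edgeR's quasi-likelihood test between KP-PPARαΔ13 and KP at a Benjamini-Hochberg adjusted p of 0.05, where 0.00605% of the 16527 genes tested did. None had an unadjusted p under 0.05 by edgeR, beside 879 higher and 997 lower of all genes tested. DESeq2 and limma voom also called 0, beside 2.25% and 0.00605% of all genes. Of the mitotic genes, 25 had higher and 8 lower values in KP-PPARαΔ13, with a median log2 fold change of 0.26, and of the S-phase genes 9 were higher and 9 lower, with a median of -0.02, beside -0.01 over all genes. *Kif23* had the smallest p, with 152, 132 and 98.95 CPM in KP-PPARαΔ13 and 92.8, 51.3 and 91.8 CPM in KP. Its log2 fold change was 0.70 ± 0.33 (SE; adjusted p = 0.462, edgeR). It was the one gene of the 53 whose groups did not overlap, against 6.55% of all genes with higher and 6.70% with lower values in all KP-PPARαΔ13 tumors. The other mitotic genes with the smallest p were *Prc1*, a bundler of spindle microtubules, at -0.67 ± 0.41, *Ccnb2*, cyclin B2, at 0.65 ± 0.43, and *Cenpa*, the histone of centromeres, at 0.59 ± 0.42. *Prc1* shares 11.1% of its exon length with the opposite-strand gene *Rccd1*. On the S-phase side they were *Mcm4* (0.43 ± 0.25), the licensing factor *Cdc6* (0.57 ± 0.37) and cyclin E2, *Ccne2* (-0.60 ± 0.49), followed by *Mybl2* (0.45 ± 0.44). The smallest adjusted p of these 7 was 0.555. Leaving out 1 tumor moved these values, with none of the 53 called. Without KP-PPARαΔ13 tumor 3, 31 of 33 mitotic genes were higher (median 0.58), without KP-PPARαΔ13 tumor 2 only 12 were (-0.14), and without KP tumor 1 17 were (0.03). The S-phase median was 0.47 without KP tumor 2, where all 18 genes were higher, and -0.29 without KP-PPARαΔ13 tumor 2. For *Prc1* the log2 fold change was -0.16 without KP tumor 2. Alveolar type 1 markers had higher values in KP-PPARαΔ13 for 6 of 6 genes (median 0.47). Alveolar type 2 markers had lower values for 7 of 8 (-0.44), with no gene of either list called.

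By role, the 10 spindle and cytokinesis genes (8 higher, median 0.32) and the 8 centromere and kinetochore genes (7 higher, 0.30) had the largest positive medians of the mitotic and S-phase roles in this comparison, and the 7 helicase genes (3 higher, -0.03) and 5 licensing and G1/S genes (2 higher, -0.10) lay near 0. No list of related genes had a call either. The lowest adjusted p in these lists was 0.315, for *Mycl*, the L-Myc gene, with 1.37, 3.13 and 1.74 CPM against 11.1, 47.7 and 7.204 CPM. *Cdk6*, a cyclin D kinase, had 10.9, 19.7 and 12.9 CPM against 3.25, 3.61 and 5.64 CPM (log2 fold change 1.80 ± 0.63, adjusted p = 0.351, edgeR). Neither gene's groups overlapped. Among the inhibitors, *Gadd45a* (0.88 ± 0.34) and *Cdkn2b*, which encodes p15 (0.67 ± 0.26), had the smallest p. The replication genes *Gins3* (-0.92 ± 0.45) and *Rfc4* (0.40 ± 0.20), the mitotic genes *Espl1*, separase (-0.46 ± 0.27), and *Cep55* (0.79 ± 0.50), the repair genes *Bard1* (0.52 ± 0.45) and *Brca2* (-0.50 ± 0.55), and the RB family genes *Rbl1* (-0.60 ± 0.29) and *Rbl2* (-0.32 ± 0.21) had the smallest p of their lists.

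The same contrast in tumors with floxed Glut1, KPG1-PPARαΔ13 against KPG1, also gave 0 calls among the 53 genes by edgeR, DESeq2 and limma voom, beside 0.00605%, 1.28% and 0% of all genes. None of the 53 had an unadjusted p under 0.05 by edgeR (1 by DESeq2). Of all 16527 genes tested, 1033 were higher and 744 lower at that unadjusted p by edgeR. The S-phase genes had higher values in KPG1-PPARαΔ13 for 16 of 18, with a median log2 fold change of 0.31, whereas the mitotic genes were split 17 to 16, with a median of 0.05, beside 0.02 over all genes. *E2f1* had 9.48, 11.6 and 7.29 CPM against 5, 2.79 and 6.05 CPM. It had the smallest p, with a log2 fold change of 1.03 ± 0.49 (adjusted p = 0.483, edgeR). *Mcm3* had 69.01, 58.6 and 52.8 CPM against 35.8, 35.7 and 44.7 CPM, a log2 fold change of 0.63 ± 0.38. Groups did not overlap for *E2f1*, *Mcm3*, *Mcm6* and *Ccnb2*, all 4 with the higher values in KPG1-PPARαΔ13, while 11.2% of all genes were higher and 9.41% lower without overlap. *Ccne1* (1.11 ± 0.75) and *Mcm2* (0.55 ± 0.38) came next on the S-phase side. On the mitotic side *Kif23* (0.52 ± 0.33), *Prc1* (-0.48 ± 0.40), *Ccnb2* (0.46 ± 0.43) and the checkpoint kinase *Bub1* (0.55 ± 0.53) had the smallest p. All 7 helicase genes and all 5 licensing and G1/S genes had positive log2 fold changes, with medians of 0.45 and 0.33. When each tumor was left out in turn, the S-phase median lay between 0.18 (without KPG1-PPARαΔ13 tumor 1) and 0.48 (without KPG1-PPARαΔ13 tumor 3), and the mitotic median between -0.21 (without KPG1-PPARαΔ13 tumor 2) and 0.22 (without KPG1 tumor 1). *Ccne1* was at 0.42 without KPG1-PPARαΔ13 tumor 1. Cell type markers had lower values in KPG1-PPARαΔ13 for 6 of 6 endothelial genes (median -0.68) and 6 of 6 alveolar type 1 genes (-0.77). The same held for 8 of 8 alveolar type 2 genes (-0.89, 6 of them without overlap), and none of these genes was called.

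In the related lists, *Chek1*, a checkpoint kinase of stalled forks, had 15.1, 10.6 and 11.6 CPM in KPG1-PPARαΔ13 and 5.32, 4.17 and 5.98 CPM in KPG1. Its groups did not overlap (log2 fold change 1.27 ± 0.46, adjusted p = 0.4199, edgeR). *Ccnd2*, cyclin D2, had 26.4, 32.98 and 18.4 CPM against 6.76, 4.27 and 6.94 CPM and did not overlap either (2.11 ± 0.80). *Ccnd1* pointed the other way (-0.92 ± 0.39). *Cdkn2b* (0.76 ± 0.26) and *Gadd45a* (0.71 ± 0.34) were again the inhibitors with the smallest p. The remaining lists were led by *Tipin* (0.61 ± 0.32) and *Pola1* (0.81 ± 0.42) of replication, *Fanca* (0.84 ± 0.50) of fork repair, *Racgap1* (-0.50 ± 0.32) and *Gtse1* (-0.44 ± 0.31) of mitosis, and *E2f6* (0.76 ± 0.37) and *Lin54* (-0.45 ± 0.23) of the E2F and MuvB families, none of them called.

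**Figure D5:**
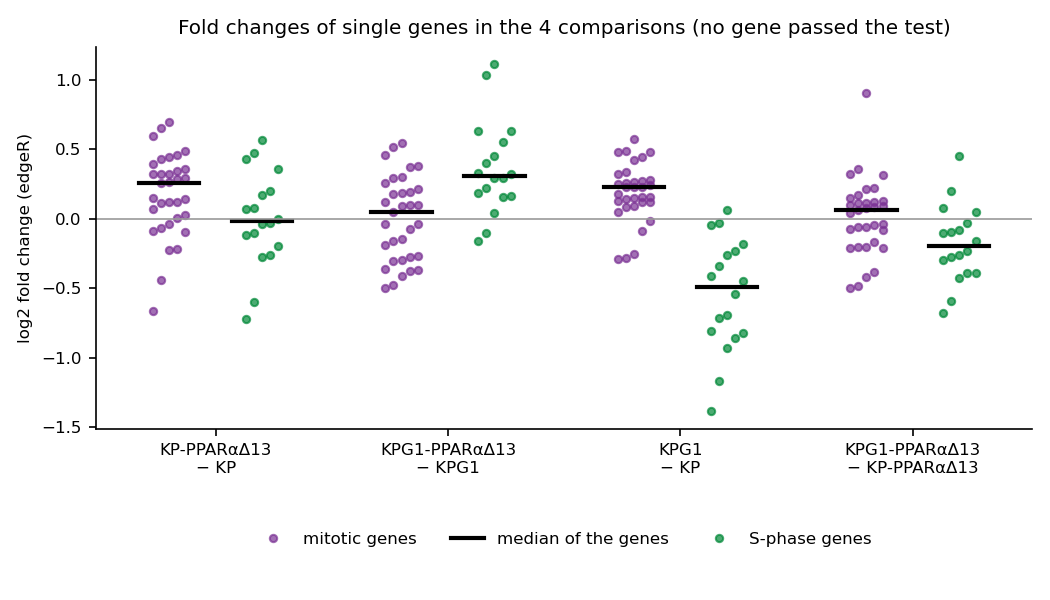
Log2 fold change by edgeR (vertical axis) of each mitotic and S-phase gene (points) with the median of each list (black lines) in 4 comparisons of groups, which share tumors with each other. The S-phase genes lie mostly below 0 in KPG1 against KP (median -0.49) and mostly above 0 in KPG1-PPARαΔ13 against KPG1 (median 0.31), and no gene passed the test.

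KPG1 and KP were then compared on the regular diet, where genotype and sex cannot be told apart. These control tumors are shared with the comparisons above. None of the 53 genes was called by edgeR, DESeq2 or limma voom, beside 0.0363%, 0.363% and 0.0303% of all genes. S-phase and mitotic genes lay on opposite sides. Of the S-phase genes, 17 of 18 had lower values in KPG1, with a median log2 fold change of -0.49, and 28 of 33 mitotic genes had higher values, with a median of 0.23, beside -0.03 over all genes. Unadjusted p by edgeR was under 0.05 for 2 of the 53 genes, beside 400 higher and 630 lower of all 16527 genes tested. *Mcm2* had 33.7, 33.7 and 52.4 CPM against 46.8, 128 and 53.6 CPM (log2 fold change -0.93 ± 0.38, adjusted p = 0.786, edgeR). *E2f1* had 5, 2.79 and 6.05 CPM against 4.31, 16.8 and 9.95 CPM (-1.17 ± 0.49). Both genes overlapped between the groups. *Ccne1* (-1.39 ± 0.76) and *Mcm6* (-0.71 ± 0.36) followed. *Mcm5* and *Mcm6* were lower and *Cenpa* higher in all KPG1 tumors, where 4.82% of all genes were higher and 5.13% lower without overlap. *Cenpa* (0.57 ± 0.42), *Ccnb1* (0.48 ± 0.40), the kinetochore gene *Cenpf* (0.48 ± 0.43) and the spindle motor *Kif11* (0.49 ± 0.47) had the smallest p of the mitotic genes. All 7 helicase genes (median -0.69) and all 5 licensing and G1/S genes (-0.86) had negative log2 fold changes, and all 8 centromere and kinetochore genes positive ones (0.31). Without KP tumor 2, 10 of 18 S-phase genes were lower and 8 higher, with a median of -0.09, and the median without each of the other tumors was at most -0.49. Without KP tumor 1 or without KPG1 tumor 1, 15 of 33 mitotic genes were higher, with medians of -0.02 and -0.05.

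Among related genes, *Ccnd2* had 6.76, 4.27 and 6.94 CPM in KPG1 against 74.9, 16.4 and 17.2 CPM in KP, without overlap (log2 fold change -2.59 ± 0.82, adjusted p = 0.785, edgeR). *Chek1* (-1.17 ± 0.46), *Fanca* (-0.95 ± 0.50), *Gins3* (-0.97 ± 0.45), the chromatin assembly factor *Chaf1a* (-0.53 ± 0.29), the E2F partner *Tfdp1* (-0.80 ± 0.36), *Rbl1* (-0.56 ± 0.29) and *Mycn* (-0.75 ± 0.41) led their lists with negative values, and *Cks1b* (0.47 ± 0.27), *Incenp* (0.48 ± 0.30) and *Ccng2* (0.46 ± 0.27) with positive ones. *Btg1* was at -0.29 ± 0.19. Of 35 other replication genes, 24 had lower values in KPG1 (median -0.26), and of 37 other mitotic genes 25 had higher values (0.14). All 9 leukocyte markers tested were lower in KPG1 too, with a median of -0.64, none of them called. Higher values in KPG1 were found for 5 of 6 alveolar type 1 (median 0.43), 7 of 8 alveolar type 2 (0.53) and 5 of 6 fibroblast markers (0.18). Endothelial markers were split 3 to 3, and no gene of these lists was called.

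Under doxycycline, KPG1-PPARαΔ13 against KP-PPARαΔ13, again no gene of the 53 was called by edgeR, DESeq2 or limma voom, beside 0.0303%, 0.938% and 0.0303% of all genes. None of the 53 had an unadjusted p under 0.05 by edgeR (1 by DESeq2). Of all 16527 genes tested, 868 were higher and 733 lower at that unadjusted p by edgeR. Lower values in KPG1-PPARαΔ13 were found for 14 of 18 S-phase genes (median -0.19) and 15 of 33 mitotic genes (median 0.06). No gene of the 53 was without overlap, where 10.3% of all genes were higher and 7.25% lower. *Spc25*, a kinetochore gene, had the smallest p, with 21.7, 11.5 and 8.65 CPM against 7.16, 10.97 and 4.19 CPM (log2 fold change 0.91 ± 0.43, adjusted p = 0.5202, edgeR). *Ect2* (-0.50 ± 0.43), *Ndc80* (-0.48 ± 0.46) and *Cenpa* (-0.38 ± 0.42) followed. *Uhrf1*, which keeps DNA methylation through replication, had 18.2, 34.7 and 20.6 CPM against 45.5, 48.5 and 23.3 CPM (-0.68 ± 0.36). *Mcm4* (-0.43 ± 0.25), *Rrm2* (-0.59 ± 0.55) and the chromatin remodeler *Hells* (-0.39 ± 0.38) came next. Without KP-PPARαΔ13 tumor 3, 17 of 18 S-phase genes (median -0.53) and 32 of 33 mitotic genes (-0.28) had lower values in KPG1-PPARαΔ13, and without KP-PPARαΔ13 tumor 2 the medians were 0.07 and 0.28, with none of the 53 called. Markers of other cells had lower values in KPG1-PPARαΔ13 for 6 of 6 fibroblast genes (median -1.25, 3 of them without overlap), 6 of 6 endothelial genes (-0.82), 6 of 6 alveolar type 1 genes (-0.84) and 9 of 9 leukocyte genes (-0.52), none of them called.

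Among related genes, *Cdkn1c*, which encodes the inhibitor p57, had 223, 21.9 and 27.03 CPM against 12.3, 11.8 and 13.5 CPM (log2 fold change 2.85 ± 0.86, adjusted p = 0.462, edgeR). KPG1-PPARαΔ13 tumor 1 was far above the others. *Gas1* was at or below 0.469 CPM in every tumor. *Mycl* (2.78 ± 1.00), *Ccnd1* (-1.05 ± 0.39), *Rfc4* (-0.53 ± 0.20), *Chaf1a* (-0.63 ± 0.29), *Cks2* (0.55 ± 0.38), *Tacc3* (-0.50 ± 0.40), *Bard1* (-0.69 ± 0.45), *Chek1* (0.38 ± 0.46), *E2f3* (0.73 ± 0.39) and *Tfdp2* (-0.43 ± 0.29) had the smallest p of their lists, and no gene of these lists was called.

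Averaged over both genotypes, the contrast of doxycycline with regular diet called none of the 53 genes by edgeR, DESeq2 or limma voom (0.0182%, 1.74% and 0.0182% of all genes). Unadjusted p by edgeR was under 0.05 for *Kif23* alone, beside 850 higher and 812 lower of all 16527 genes tested. Its log2 fold change was 0.61 ± 0.23 (adjusted p = 0.419, edgeR). *Prc1* (-0.57 ± 0.29), *Ccnb2* (0.55 ± 0.30) and *Anln*, anillin of the contractile ring (0.32 ± 0.25), followed, and of the S-phase genes *Mcm4* (0.31 ± 0.18), *Cdc6* (0.45 ± 0.26), *E2f1* (0.47 ± 0.35) and *Pcna* (0.18 ± 0.14). S-phase genes had higher values with doxycycline for 17 of 18, with a median of 0.17, and mitotic genes for 19 of 33, with a median of 0.02. Without KP tumor 2 the S-phase median was 0.39 and without KP-PPARαΔ13 tumor 2 it was 0.05, and the mitotic median lay between -0.08 without KP-PPARαΔ13 tumor 2 and 0.22 without KP tumor 3. Among the inhibitors, *Cdkn2b* was at 13.7, 13.4 and 18.5 CPM in the KP tumors, 29.9, 23.6 and 18.9 CPM in the KP-PPARαΔ13 tumors, 10.5, 16.8 and 11.6 CPM in the KPG1 tumors and 20.1, 20.7 and 25.2 CPM in the KPG1-PPARαΔ13 tumors. All 6 tumors on doxycycline lay above the 6 on the regular diet, as for 0.266% of all genes (0.224% lay below), and its log2 fold change of 0.72 ± 0.18 did not pass the test (adjusted p = 0.282, edgeR). *Gadd45a* was at 0.79 ± 0.24, *Ccnd2* at 1.60 ± 0.56 and *Cdk6* at 0.94 ± 0.44. The other lists were led by *Pold3* (-0.33 ± 0.20), *Mcm10* (0.35 ± 0.26), *Espl1* (-0.38 ± 0.19), *Gtse1* (-0.32 ± 0.22), *Fanci* (-0.58 ± 0.36), *Chek1* (0.50 ± 0.32), *Rbl2* (-0.26 ± 0.15) and *Lin54* (-0.24 ± 0.16).

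Averaged over both diets, the contrast of KPG1 with KP genotypes also called none of the 53 genes by edgeR, DESeq2 or limma voom (0.0484%, 0.236% and 0.0484% of all genes). None had an unadjusted p under 0.05 by edgeR, beside 356 higher and 392 lower of all 16527 genes tested. All 18 S-phase genes had lower values with the floxed Glut1 genotype, with a median of -0.38 and log2 fold changes from -0.60 to -0.06. The smallest p were those of *Uhrf1* (-0.51 ± 0.26), *Mcm2* (-0.51 ± 0.27), *Mcm6* (-0.47 ± 0.25) and *E2f1* (-0.60 ± 0.35), with adjusted p = 0.976 (edgeR). Mitotic genes had higher values for 27 of 33, with a median of 0.11, and *Spc25* (0.50 ± 0.31), *Ccnb1* (0.35 ± 0.28), *Cenpf* (0.28 ± 0.30) and *Mki67* (0.22 ± 0.30) had the smallest p. Without KP tumor 2 the S-phase median was -0.13, with 16 of 18 genes lower, and without KP-PPARαΔ13 tumor 3 the mitotic median turned to -0.06, as it did to -0.02 without KP tumor 1, and it was 0.25 without KP-PPARαΔ13 tumor 2. In the other lists *Chaf1a* (-0.58 ± 0.20), *Cdc45* (-0.39 ± 0.27), *Cks2* (0.38 ± 0.27), *Arhgap11a* (0.24 ± 0.22), *Fanca* (-0.57 ± 0.35), *Bard1* (-0.43 ± 0.32), *Ccnd2* (-2.08 ± 0.56), *Ccnd3* (-0.52 ± 0.22), *Cdkn1c* (1.82 ± 0.59), *E2f4* (-0.29 ± 0.19) and *Tfdp1* (-0.37 ± 0.25) had the smallest p. The leukocyte markers had lower values for 9 of 9, with a median of -0.78. So did 6 of 6 endothelial (-0.46), 6 of 6 alveolar type 1 (-0.34) and 5 of 6 fibroblast markers (-0.43). The airway markers had higher values for 5 of 5 (0.62), and the alveolar type 2 markers were split 4 to 4. These averages hide a difference between the diets. In KPG1 against KP, alveolar type 1 (0.43) and fibroblast markers (0.18) were each higher for 5 of 6 genes, and endothelial markers were split 3 to 3. None of these markers was called.

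Whether the contrast of PPARαΔ13 with its control differed between genotypes was tested as an interaction, and none of the 53 genes passed by edgeR, DESeq2 or limma voom (0%, 1.73% and 0% of all genes). The largest differences were those of *Ccne1* (1.83 ± 1.06, adjusted p = 0.504, edgeR), *E2f1* (1.14 ± 0.69) and *Cenpa* (-0.95 ± 0.59). *Ccne1* rests on KP tumor 2 and KPG1-PPARαΔ13 tumor 1. The median difference was 0.29 over the S-phase genes and -0.20 over the mitotic genes, and with a tumor left out the first lay between -0.09 (without KP tumor 2) and 0.55 (without KP-PPARαΔ13 tumor 2) and the second between -0.56 (without KP-PPARαΔ13 tumor 3) and 0.08 (without KP-PPARαΔ13 tumor 2). Of the cell type markers, differences were negative for 6 of 6 fibroblast (median -1.31), 6 of 6 endothelial (-0.78) and 6 of 6 alveolar type 1 genes (-1.34). They were negative for 7 of 8 alveolar type 2 genes (-0.58) and positive for 4 of 5 airway genes (1.004), none of them called. A p above the threshold does not show that the groups had equal levels.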

How the data were processed

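RNA of the CD45-negative fraction of 12 tumors was sequenced from polyA libraries made with a strand-marking kit. The deposited values are raw read counts per gene. The submitters' processing notes name bcl2fastq 2.17, cutadapt 1.4.2, HISAT2, featureCounts 1.4.4 and edgeR with mm10, and the strand setting of counting is not given in the sources used here. A deposited table of log2 values was not used.

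Genes were filtered with filterByExpr (16527 kept), scaled by TMM and tested in R 4.3.3 with edgeR 4.0.16 (quasi-likelihood, 4 groups in one model, 8 residual degrees of freedom), with Benjamini-Hochberg adjustment over all genes tested and a threshold of 0.05. log2 CPM used a prior count of 2, and TPM used GENCODE M21 exon lengths. Scripts were tested on simulated data. The members and lists were chosen with earlier results of these data known. Named genes were 16 members given in every tumor, the 4 mitotic and the 4 S-phase or regulator members of smallest p per comparison, the 2 genes of smallest p per related list, *Cdkn1a*, *Cdkn2a*, *Ccnd1* and *Myc*, and the 3 most and 3 least variable members. Alternatives were DESeq2 1.42.0, voom (limma 3.58.1), upper-quartile scaling, other filters, sex as a covariate, a replicate block, summed tumors of a mouse, only the groups compared, and leaving out each tumor.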

Additional observations from a re-analysis of the deposited data

How the results depend on the processing

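None of the 53 genes was called under the alternatives run, 21 for each comparison of a pair of groups and all of these except the fit of only the groups compared for diet, genotype and their interaction. The number of all genes called depended on the tool, with 372, 211, 60, 155, 288, 39 and 286 by DESeq2 against 1, 1, 6, 5, 3, 8 and 0 by edgeR, for KP-PPARαΔ13 against KP, KPG1-PPARαΔ13 against KPG1, KPG1 against KP, KPG1-PPARαΔ13 against KP-PPARαΔ13, diet, genotype and their interaction. The cause was not tested. With a replicate block, edgeR called 0, 2, 4, 3, 4, 5 and 0 genes in that order and none of the 53. Same-numbered tumors correlated between -0.19 and 0.13 in their deviations from the group means, so the numbers do not pair them.

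Of 48 fold changes of named genes, 39 moved by over 1.5 times when a tumor was left out, and 5 of these reversed. *Ccne2* in KP-PPARαΔ13 against KP ranged from -0.93 to 0.17 and *Mybl2* from -0.16 to 0.79. *Ccne1* in KPG1 against KP ranged from -1.79 to 0.0068. In KPG1-PPARαΔ13 against KP-PPARαΔ13, *Cenpa* ranged from -0.79 to 0.014 and *Rrm2* from -1.04 to 0.23. The medians of the mitotic and S-phase genes with a tumor left out were added after seeing the data. Depth was not varied.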
